A study of Mus musculus with 25 samples.

Results

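The Hox genes encode homeodomain transcription factors and lie in 4 clusters, named Hoxa to Hoxd. They were taken here as every row of the 2 RNA count tables whose symbol was Hox, a cluster letter and a paralog number from 1 to 13, with nothing added. This gave 39 genes of 35731 in the table of mouse embryonic stem cells (mESCs) and the same number, 39, of 24062 in the table of mouse embryos. Hoxa held 11 of them, at chr6:52155367-52260880 (105.5 kb), and Hoxb held 10, at chr11:96194316-96368254 (173.9 kb). Hoxc held 9, at chr15:102921131-103036856 (115.7 kb), and Hoxd held 9, at chr2:74668225-74765142 (96.9 kb). Positions are those of the RefSeq annotation of GRCm38.p6 (mm10), from the first to the last base of the Hox genes of a cluster.

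Within a cluster, genes with low paralog numbers are switched on early and in anterior parts of the body axis, and genes with high numbers later and in posterior parts. In undifferentiated ES cells the clusters are known as a classical target of Polycomb repression, and retinoic acid is a classical inducer of the low-numbered genes. Dot1L is the methyltransferase of lysine 79 of histone H3, a modification found over the bodies of transcribed genes. In leukaemias with MLL fusions, Dot1L is recruited to HOXA genes and keeps them expressed.

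The cells were v6.5 mESCs, either wild type (WT) or labelled Dot1L KO, with no treatment. H3K79me2 was immunoprecipitated with antibody ab3594 and H3K79me3 with ab2621, in 2 WT and 2 KO libraries per mark. RNA was sequenced from 3 WT and 2 KO libraries of mESCs, and from 8-cell embryos of a B6D2F1 by Cast/EiJ cross at 56 hours after fertilization, in pools of 30 to 35 embryos. The embryos were wild type and had received the solvent DMSO (2 pools) or the Dot1L inhibitor SGC0946 (2 pools). The deleted part of Dot1L, the number of KO clones and the dose of the inhibitor are not given in the sources used here. Nothing in the labels says whether replicates came from separate cultures, so p-values measure the spread between these libraries, which may be technical.

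Library totals were 26860527 to 33755064 estimated counts in mESCs and 24950199 to 32479590 read counts in embryos. Dot1l itself had 2878, 3151 and 2849 counts in WT against 2319 and 2201 in KO mESCs, a log2 fold change of -0.39 ± 0.06 (SE; adjusted p = 0.000161). Counts summed over the gene do not show which part of the transcript remains, so they check the label only in part. The peak lists separated the genotypes further, with 66834 and 64084 H3K79me2 peaks in WT against 16 and 12 in KO. For H3K79me3 the lists held 19800 and 7338 peaks in WT, which were unequal between the 2 replicates, against 178 and 328 in KO. The 8 pluripotency markers that were listed, Pou5f1, Nanog, Sox2, Zfp42, Esrrb, Klf4, Tdgf1 and Dppa5a, were present in every mESC library at a summed 3984 to 4547 CPM (a count divided by its TMM-scaled library size). Of these, 1 rose and 4 fell in KO, against 22.3% and 21.6% of all tested genes, and Nanog fell by 1.02 on the log2 scale.

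Promoter sequences of 5 members are shown because the results turn on them. Hoxd1 was called higher in every setting run, Hoxa5 and Hoxd8 were the genes near whose start both WT lists held an H3K79me3 peak, and Hoxd13 and Hoxa13 were the genes whose promoter window met a peak in a WT list. Each sequence is the RefSeq promoter window of GRCm38.p6, 250 bases before to 50 bases after the annotated start, 5′ to 3′ on the gene's strand, with every CpG in capitals.
Hoxd1 (chr2:74762730-74763029, + strand): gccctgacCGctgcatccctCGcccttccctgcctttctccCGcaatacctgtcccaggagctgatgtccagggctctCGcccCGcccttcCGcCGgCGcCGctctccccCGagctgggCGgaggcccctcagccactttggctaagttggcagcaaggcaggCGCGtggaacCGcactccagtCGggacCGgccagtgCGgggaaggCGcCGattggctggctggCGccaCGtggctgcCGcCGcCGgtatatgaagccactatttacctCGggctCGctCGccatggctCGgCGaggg
Hoxa5 (chr6:52204538-52204837, - strand): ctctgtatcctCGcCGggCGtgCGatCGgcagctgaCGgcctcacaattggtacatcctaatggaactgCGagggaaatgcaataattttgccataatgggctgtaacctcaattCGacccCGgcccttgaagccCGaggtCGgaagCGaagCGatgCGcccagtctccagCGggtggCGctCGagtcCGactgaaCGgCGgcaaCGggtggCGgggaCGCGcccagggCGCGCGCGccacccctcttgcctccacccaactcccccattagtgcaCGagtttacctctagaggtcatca
Hoxd8 (chr2:74704365-74704664, + strand): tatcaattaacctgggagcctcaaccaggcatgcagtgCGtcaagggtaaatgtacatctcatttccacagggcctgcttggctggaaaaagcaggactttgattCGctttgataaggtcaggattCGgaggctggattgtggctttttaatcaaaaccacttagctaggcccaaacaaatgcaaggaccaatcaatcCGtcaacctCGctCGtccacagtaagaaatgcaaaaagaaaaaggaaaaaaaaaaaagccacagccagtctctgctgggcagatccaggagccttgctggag
Hoxd13 (chr2:74667975-74668274, + strand): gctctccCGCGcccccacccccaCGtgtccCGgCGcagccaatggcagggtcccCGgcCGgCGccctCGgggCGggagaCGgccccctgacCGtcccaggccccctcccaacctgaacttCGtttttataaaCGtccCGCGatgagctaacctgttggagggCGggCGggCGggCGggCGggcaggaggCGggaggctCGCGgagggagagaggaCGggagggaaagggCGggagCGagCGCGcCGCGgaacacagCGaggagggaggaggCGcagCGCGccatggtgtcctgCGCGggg
Hoxa13 (chr6:52260831-52261130, - strand): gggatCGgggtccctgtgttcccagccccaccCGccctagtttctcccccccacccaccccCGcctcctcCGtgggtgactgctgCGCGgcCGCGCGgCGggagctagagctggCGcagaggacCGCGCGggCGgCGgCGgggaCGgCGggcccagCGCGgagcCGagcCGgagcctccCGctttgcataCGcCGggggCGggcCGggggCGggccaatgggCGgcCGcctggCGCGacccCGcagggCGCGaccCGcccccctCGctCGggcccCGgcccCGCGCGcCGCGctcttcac
The windows of Hoxd1 and Hoxa5 held 29 CpGs each, that of Hoxd13 held 37 and that of Hoxa13 held 45. That of Hoxd8 held 6. Promoter windows were matched for 22 of the 39 genes, with 24 windows, and their median was 14.5 CpGs, against 7 over 32851 mouse promoter windows of the same length. The retinoic acid receptor half-site AGGTCA, searched on both strands, was found in 29.2% of the Hox windows and 16.3% of all windows. The Hox windows that held it were those of Hoxa5, Hoxb4, Hoxc4, Hoxd3, Hoxd4, Hoxd8 and Hoxd10, and that of Hoxd1 did not. The letters TGATTNAT, a binding motif of HOX and PBX dimers, were found in 8.33% of the Hox windows and 3.22% of all windows. The letters TTTATG were found in 20.8% against 11.9%, and TATAAA in 16.7% against 13.6%. These shares describe letters in the windows, with only 24 windows on the Hox side.

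In mESCs the Hox genes were present at low levels. All 39 had counts in at least 4 of the 5 libraries, and all but Hoxd12 in all 5. Their counts summed to 1043, 1247 and 1145 per WT library and to 1378 and 1428 per KO library, or 37.8, 38.3 and 39.9 CPM against 48.4 and 46.4 CPM. The 2 KO sums lay above all 3 WT sums. One count was worth 0.0307 to 0.0362 CPM, and the WT means of the 39 genes ran from 0.0977 CPM for Hoxd12 to 3.99 CPM for Hoxb9. No transcript lengths were at hand, so the order of levels between genes includes their lengths.

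**Figure D1:**
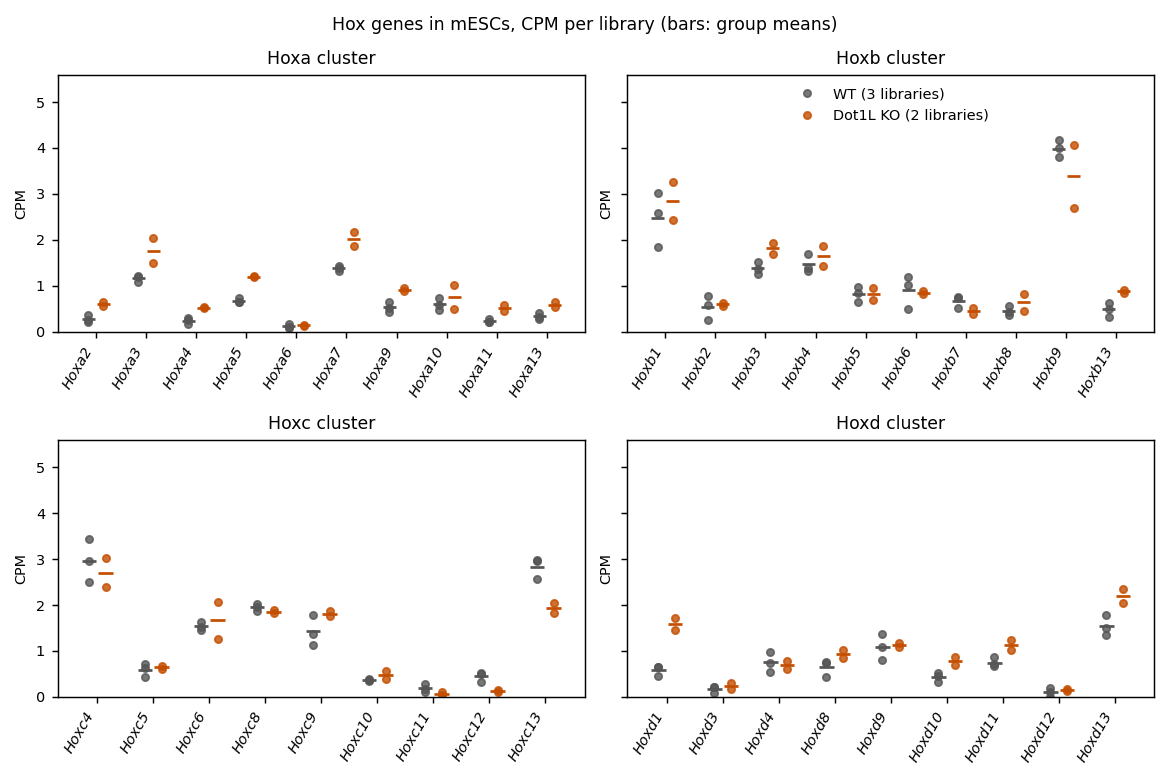
Level of the Hox genes described (y axis, CPM) in each mESC library, in 1 panel per cluster. Points are libraries (3 WT, 2 Dot1L KO) and bars are group means; both KO points of Hoxd1 lie above its 3 WT points, and those of Hoxc13 below.

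Hoxb9 and Hoxc4 had the highest means. Hoxb9, which patterns the ribs of the chest, had 115, 130 and 109 counts in WT against 116 and 83 in KO. Its groups overlapped (log2 fold change -0.24 ± 0.17, SE; adjusted p = 0.29), and the sign turned on the KO libraries: it was 0.03 without KO replicate 2, and -0.56, called lower with adjusted p = 0.0262, without KO replicate 1. Hoxc4 had 69, 112 and 85 counts in WT against 68 and 93 in KO (log2 fold change -0.14 ± 0.19, SE; adjusted p = 0.592), with overlapping groups and a value of 0.02 without KO replicate 1.

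Knockout of Dot1L was accompanied by higher RNA of part of the Hoxa cluster and of Hoxd1, and by lower RNA of Hoxc12 and Hoxc13. Of the 35 Hox genes with enough counts to test, 8 rose and 2 fell at an adjusted p under 0.05 (edgeR quasi-likelihood F test, Benjamini-Hochberg over 19532 genes). Across all tested genes 22.3% rose and 21.6% fell, so in this fit the share of Hox genes that rose was near the background and fewer fell. Among the 6384 tested genes in the range of mean CPM of the tested Hox genes, 18.2% rose and 7.24% fell. The groups did not overlap in 17 Hox genes that were higher and 3 that were lower in KO, against 31.8% and 30.7% of all tested genes. The median log2 fold change of the 35 genes was 0.38, with 26 above 0, against 0.00 for all tested genes and 0.09 for those in the same range of CPM. A value above 0 was found in 50.1% of all tested genes and in 56.9% of those in the same range of CPM. The genes not tested were Hoxa6, Hoxc11, Hoxd3 and Hoxd12, which had 0 to 9 counts per library.

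Most calls depended on the setting. Hoxd1 was called higher in all 13 alternative settings, whereas DESeq2 called 2 Hox genes in all, both higher, against 3260 higher and 3505 lower of all 19532 tested genes. Leaving out a library left 5 calls (WT replicate 1), 3 (WT replicate 2), 6 (WT replicate 3), 6 (KO replicate 1) or 3 (KO replicate 2). Over all genes these fits called 6940 to 8434. Over both directions, the share of Hox genes called was below that of all tested genes in every setting that kept both KO libraries. In edgeR with all libraries it was 10 of 35 against 8572 of 19532. That background includes genes outside the range of mean CPM of the tested Hox genes. Within that range, edgeR with all libraries called 1161 of 6384 genes higher and 462 lower, against 8 and 2 of 35 Hox genes. In the 2 fits without a KO replicate the lone KO library was assumed to vary like the WT libraries. Every called gene kept its direction in every setting that tested it.

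**Figure D2:**
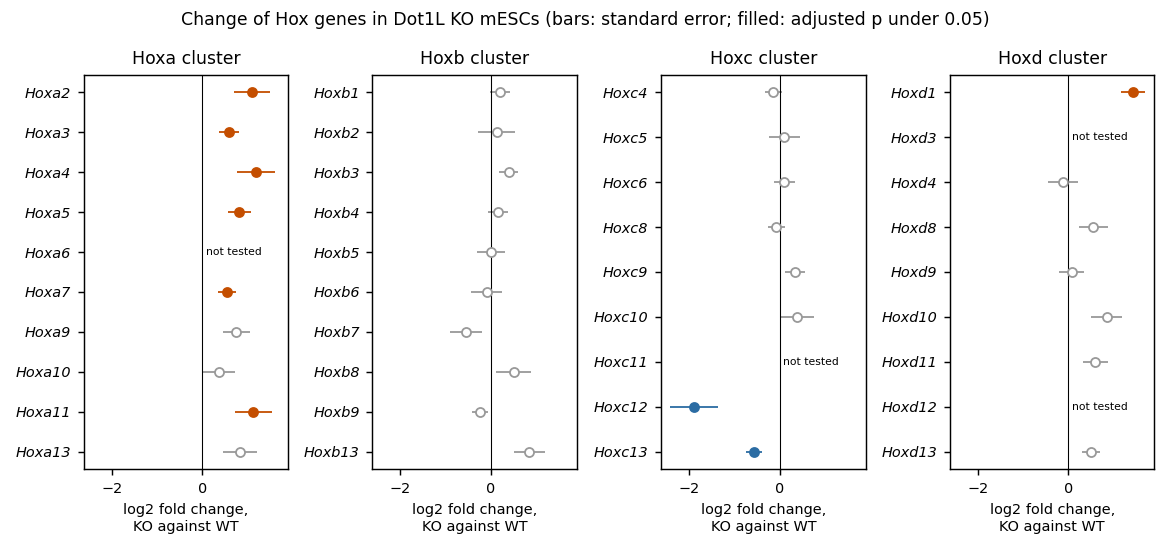
Log2 fold change of the Hox genes described, in Dot1L KO against WT mESCs (x axis), by cluster, with paralog numbers rising downwards. Bars are standard errors, filled points have an adjusted p under 0.05 (orange higher, blue lower) and 4 genes were not tested; all tested Hoxa genes shown lie to the right of 0.

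Most of the called genes were Hoxa genes. All 10 tested Hoxa genes had a positive log2 fold change, 7 of them rose, and in 9 the KO libraries lay above every WT library. Among all tested genes 50.1% had a positive value, 22.3% rose, and in 31.8% the KO libraries lay above every WT library. In the range of mean CPM of the tested Hox genes, 56.9% were positive and 18.2% rose.

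Hoxa2, which sets the identity of the second pharyngeal arch, had 7, 12 and 6 counts in WT against 16 and 20 in KO (log2 fold change 1.10 ± 0.39, SE; adjusted p = 0.0372). Hoxa3, needed for thymus and parathyroid, had 33, 35 and 35 counts in WT against 58 and 46 in KO (0.60 ± 0.23 on the log2 scale, SE; adjusted p = 0.0472). Hoxa4 had 8, 5 and 7 counts in WT against 15 and 16 in KO (log2 fold change 1.20 ± 0.42, SE; adjusted p = 0.0357). In each of these 3 genes both KO libraries lay above all WT libraries, at counts where a single library could end the call.

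Hoxa5, which acts in lung and lower neck, had 18, 21 and 21 counts in WT against 34 and 37 in KO, or 0.676 ± 0.048 CPM (SD, n = 3) against 1.20 ± 0.0060 CPM (SD, n = 2). Its log2 fold change was 0.82 ± 0.26 (SE; adjusted p = 0.0207). Hoxa7, a trunk gene, had 38, 43 and 41 counts in WT against 53 and 67 in KO (log2 fold change 0.56 ± 0.20, SE; adjusted p = 0.0373). In both genes the KO libraries lay above all WT libraries. Hoxa11, which shapes the forearm and the uterus, had 6, 7 and 8 counts in WT against 13 and 18 in KO (log2 fold change 1.13 ± 0.41, SE; adjusted p = 0.0394). DESeq2 called none of Hoxa5, Hoxa7 and Hoxa11 (adjusted p = 0.129, 0.178 and 0.204). Each of these calls also ended when WT replicate 1 or WT replicate 2 was left out.

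The 3 other tested Hoxa genes were posterior ones and did not pass the test. Hoxa9 had 12, 21 and 15 counts in WT against 27 and 27 in KO (log2 fold change 0.76, adjusted p = 0.062). Hoxa13 had 11, 10 and 8 counts in WT against 15 and 20 in KO (0.84 on the log2 scale, adjusted p = 0.0859), and Hoxa10 was the Hoxa gene whose groups overlapped (16, 15 and 21 against 14 and 31). Hoxa6 had 2 to 5 counts in each library and was not tested. Summed over its 11 genes, the cluster held 6.92, 7.35 and 7.14 CPM in WT and 13.7 and 13.1 CPM in KO.

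In the Hoxd cluster 1 of 7 tested genes rose. Over all tested genes 22.3% rose, and 18.2% of those in the range of mean CPM of the tested Hox genes. Hoxd1 had 18, 21 and 13 counts in WT against 49 and 45 in KO, or 0.583 ± 0.11 CPM (SD, n = 3) against 1.59 ± 0.18 CPM (SD, n = 2). Its log2 fold change was 1.44 ± 0.26 (SE; adjusted p = 0.000733). Its paralog Hoxb1, a rhombomere gene of the hindbrain, had 71, 60 and 87 counts in WT against 69 and 100 in KO, with overlapping groups (log2 fold change 0.21 ± 0.22, SE; adjusted p = 0.481).

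Just outside the threshold lay Hoxd13, which acts in the digits, with 37, 49 and 51 counts in WT against 67 and 63 in KO (log2 fold change 0.51, adjusted p = 0.0555), and Hoxd10 with 9, 17 and 13 counts against 20 and 27 (0.85 on the log2 scale, adjusted p = 0.0576). Together with Hoxd8 and Hoxd11 they were the uncalled Hoxd genes with KO libraries above all WT libraries. Upper-quartile scaling, which moves the median of all genes by 0.07 on the log2 scale, called 12 Hox genes higher and 2 lower, and 5503 higher against 3168 lower over all genes. The Hoxd genes summed to 6.2, 5.63 and 6.34 CPM in WT and 8.85 and 8.84 CPM in KO.

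In the Hoxc cluster no gene rose and 2 of 8 fell, both at its posterior end. Of all tested genes 22.3% rose and 21.6% fell. The shares were 18.2% and 7.24% in the range of mean CPM of the tested Hox genes. Hoxc12 had 9, 16 and 15 counts in WT against 4 and 3 in KO, a log2 fold change of -1.89 ± 0.52 (SE; adjusted p = 0.0106). Hoxc13, which is needed for hair and nails, had 71, 97 and 85 counts in WT against 58 and 56 in KO, or 2.84 ± 0.23 CPM (SD, n = 3) against 1.93 ± 0.15 CPM (SD, n = 2). Its log2 fold change was -0.56 ± 0.18 (SE; adjusted p = 0.0202). The KO libraries lay below all WT libraries in both genes. DESeq2 called neither of them (adjusted p = 0.0587 for Hoxc12 and 0.0890 for Hoxc13). The call of Hoxc13 also ended when WT replicate 2 or WT replicate 3 was left out. The neighbouring Hoxc11 had 5, 9 and 3 counts in WT against 3 and 1 in KO and was not tested. The 6 other tested genes, Hoxc4 to Hoxc10, had log2 fold changes from -0.14 to 0.38, and the cluster summed to 11.2, 12.9 and 12.9 CPM in WT and 11.5 and 11.1 CPM in KO.

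In the Hoxb cluster 0 of 10 tested genes were called by edgeR, and 1, Hoxb13, had an unadjusted p under 0.05. DESeq2 called no Hoxb gene either. Over all tested genes edgeR called 22.3% higher and 21.6% lower. Hoxb13 was called higher with upper-quartile scaling in edgeR (adjusted p = 0.0394), with limma-voom (0.0438), with the replicate block (0.0287) and without WT replicate 3 (0.0350), and Hoxb9 was called lower without KO replicate 1 (0.0262). Hoxb13, which lies apart from the rest of its cluster, had 9, 16 and 18 counts in WT against 24 and 28 in KO (log2 fold change 0.85 ± 0.33, SE; adjusted p = 0.0539). The log2 fold changes of the 10 genes ran from -0.55 for Hoxb7 to that of Hoxb13, with a median of 0.14. The cluster summed to 13.5, 12.5 and 13.5 CPM in WT and 14.4 and 13.4 CPM in KO, with overlapping groups.

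**Figure D3:**
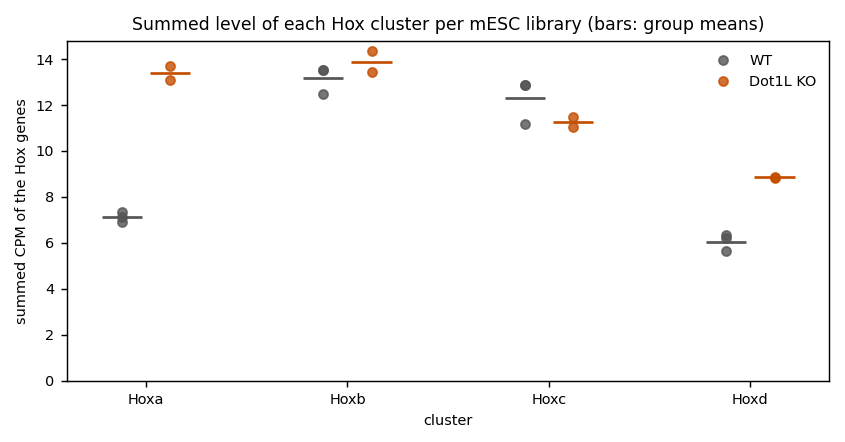
Summed CPM of the Hox genes of each cluster (y axis, from 0) in each mESC library. Points are libraries and bars are group means; the KO libraries lie above the WT libraries in Hoxa and Hoxd and overlap them in Hoxb and Hoxc.

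By paralog number, 4 of the 7 tested anterior genes (1 to 3) rose and none fell, with a median log2 fold change of 0.60. Of the 14 tested central genes (4 to 8), 3 rose and none fell, with a median of 0.11, and of the 14 posterior genes (9 to 13), 1 rose and 2 fell, with a median of 0.45. The shares over all tested genes were 22.3% that rose and 21.6% that fell. They were 18.2% and 7.24% in the range of mean CPM of the tested Hox genes. In the anterior class the summed level was 8.08, 7.87 and 8.67 CPM in WT and 14.4 and 13.3 CPM in KO. All genes that rose were Hoxa or Hoxd genes, and the anterior Hoxb genes Hoxb1, Hoxb2 and Hoxb3 had log2 fold changes of 0.21, 0.13 and 0.39, none of which passed the test. A difference between classes or clusters was not tested.

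Reads of overlapping transcripts may bear on some of these values, which was not tested. The estimated counts of Hoxa3 and Hoxa7 were not whole numbers in any of the 5 libraries, so that part of their reads was shared out between transcripts. Of the called genes, 7 had exactly whole deposited values in every library, with no tolerance allowed. The annotated body of Hoxa3 runs over Hoxa4, Hoxa5 and Hoxa6, that of Hoxb3 over Hoxb4 and that of Hoxd3 over Hoxd4. Deposited values of Hoxa4, Hoxa5, Hoxa6 and Hoxd3 were whole in every library, and those of Hoxb3, Hoxb4 and Hoxd4 in none. Whether counting used the strand is not given in the sources used here, so antisense transcripts of the clusters cannot be told apart from the genes, and none of 19 listed noncoding RNAs of the clusters had a row in the mESC table.

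H3K79me2 was not called over any Hox gene. Of the 39 gene bodies 0 met an H3K79me2 peak in both WT lists, and the same was found in each list alone and with 2 kb added on each side. In both WT lists, 37.6% of 21883 protein-coding genes met such a peak, and 2.87% of the 5745 genes in the range of WT CPM of the Hox genes. The H3K79me2 peaks inside the clusters were 9 in WT replicate 1 and 5 in WT replicate 2, all in the Hoxb cluster and all over the long noncoding gene Gm53 (chr11:96251660-96264484), in the gap between Hoxb13 and Hoxb9. They covered 40.0 and 36.2% of Gm53, and 2.96 and 2.67% of the Hoxb cluster. The peak with the highest score was chr11:96252576-96254136 in replicate 1 (5.32-fold enrichment, -log10 q of 9.83) and chr11:96256477-96257414 in replicate 2 (5.22-fold, -log10 q of 11.7), as given by the authors. RNA of Gm53 in mESCs was not analysed here, since its row is not in the table used, and it had 139, 135, 157 and 119 counts in the 4 embryo pools.

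Beside the Hoxa and Hoxd clusters H3K79me2 was present in both WT lists. The 100 kb on each side of Hoxc held 0 peaks in both lists, and those of Hoxb held 1 and 0. H3K79me2 covered 19.03 and 15.4% of Mtx2 next to Hoxd1, 5.76 and 6.25% of Lnpk on the other side of Hoxd, and 16.2 and 4.03% of the noncoding gene Halr1 beside the Hoxa cluster. The 100 kb on each side of Hoxd were covered to 6.71 and 5.56% and the Hoxd cluster to 0%. In the KO lists no H3K79me2 peak lay in a cluster or within 100 kb of it.

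H3K79me3 peaks lay over Hox genes, but nearly all in 1 WT list. WT replicate 1 had 16 peaks inside the clusters (6 in Hoxa, 4 in Hoxb, 1 in Hoxc and 5 in Hoxd), each over a Hox gene, which met 17 of the 39 genes (43.6%). In that list 24% of protein-coding genes and 15.2% of those in the same range of CPM met a peak. WT replicate 2 had 2 peaks, which met 3 genes. The 3 genes met in both lists were Hoxa3, Hoxa5 and Hoxd8 (7.69%), against 9.94% of protein-coding genes and 3.48% of those in the same range of CPM. None of the 3 was left with peaks of a -log10 q of at least 5, and 17 genes with replicate 1 alone.

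The shared Hoxa peak was chr6:52203752-52204296 in replicate 1 (3.56-fold, -log10 q of 4.24) and chr6:52203911-52204131 in replicate 2 (4.15-fold, -log10 q of 3.54). Its centre lay 563 and 566 bases downstream of the Hoxa5 start, in the gene of the second promoter printed above, and Hoxa3 is met only because its long body runs across. The shared Hoxd peak was chr2:74705187-74705518 (3.93-fold, -log10 q of 4.26) and chr2:74705290-74705497 (4.54-fold, -log10 q of 4.89), with its centre 737 and 778 bases downstream of the Hoxd8 start. Both were narrow, at 208 to 545 bases. Over Hoxb and Hoxc, WT replicate 2 had no H3K79me3 peak.

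The H3K79me3 peaks with the highest score in each cluster in WT replicate 1 were chr15:102921229-102921825 over Hoxc13 (6.99-fold, -log10 q of 15.2), chr2:74668200-74668794 over Hoxd13 (6.55-fold, 13.4), chr6:52191175-52191667 over Hoxa4 (5.24-fold, 8.46) and chr11:96345519-96345983 over Hoxb3 (4.37-fold, 5.57). The Hoxd13 peak reached into the promoter window printed above, and a further peak, chr6:52261078-52261279, overlapped the upstream end of that of Hoxa13. The 16 peaks had a median width of 435 bases and a median 3.76-fold enrichment, against 318 bases and 3.93-fold over the whole list. They covered 2.87% of Hoxa, 0.744% of Hoxb, 0.516% of Hoxc and 1.87% of Hoxd.

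Peaks at Hox genes were also called with the H3K79me3 antibody in KO cells. KO replicate 1 had a peak at chr6:52259971-52260153 over Hoxa13 (5.20-fold), and KO replicate 2 had peaks at chr6:52191336-52191624 over Hoxa4 (4.74-fold) and chr2:74668318-74668715 over Hoxd13 (5.27-fold). Each of the 3 overlapped a peak of WT replicate 1, and none overlapped a peak of WT replicate 2. They met 4 of 39 Hox genes (10.3%), counting Hoxa3, against 0.914% of protein-coding genes and 1.41% of those in the same range of CPM. In these KO lists a peak at the same place as a WT peak was called in cells labelled as lacking the enzyme, so for Hoxa13, Hoxa4 and Hoxd13 the peaks do not separate the genotypes. Heights cannot be compared between lists.

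**Figure D4:**
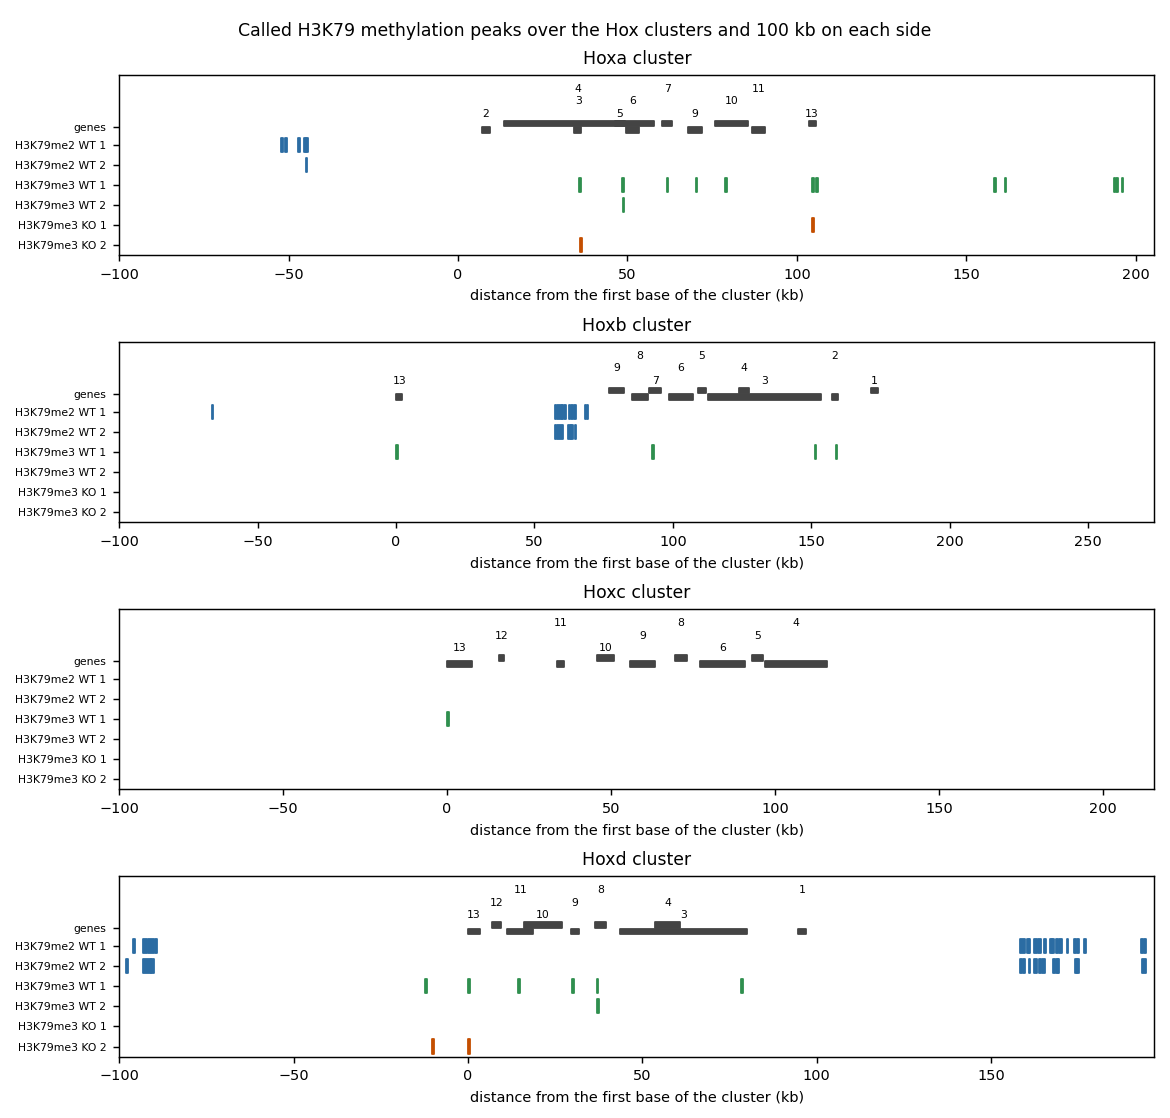
Called peaks over each Hox cluster and 100 kb on each side, by distance from the first base of the cluster (x axis, kb), with the Hox genes described as dark bars marked by paralog number. Rows are peak lists (H3K79me2 WT, H3K79me3 WT and KO; the 2 H3K79me2 KO lists had none), and peaks under 0.5 kb are drawn 0.5 kb wide; H3K79me2 lies over Gm53 and beside the Hoxa and Hoxd clusters, and most H3K79me3 peaks are in WT replicate 1.

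RNA change and H3K79me3 were set side by side. Of the 16 tested genes met by a peak in WT replicate 1, 4 rose and 1 fell, with a median log2 fold change of 0.55. Of the 19 tested genes without such a peak, 4 rose and 1 fell, with a median of 0.16. Hoxd1, called in every setting, had no peak of either mark in any list, and neither had Hoxc12, which fell. Hoxc13, which also fell, lay under the highest-scoring H3K79me3 peak of the clusters, called in WT replicate 1 alone. Hoxa3, Hoxa4, Hoxa5 and Hoxa7 rose and were met by a peak in WT replicate 1.

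In 8-cell embryos Hox RNA was scarce and differed between pools of 1 treatment. Of the 39 genes 9 had counts in every pool, and 7 (Hoxa2, Hoxa6, Hoxb2, Hoxb5, Hoxb7, Hoxc5 and Hoxd3) had none in any. For a gene at 0 in a pool, up to 3 counts, at 0.0304 to 0.0381 CPM each, would be compatible with its 0. The Hox genes summed to 265 and 239 counts with DMSO and 649 and 369 with SGC0946, or 9.76 and 9.01 CPM against 24.7 and 11.2 CPM. The 2 inhibitor pools lay above the DMSO pools and differed from each other by more than the DMSO pools did.

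**Figure D5:**
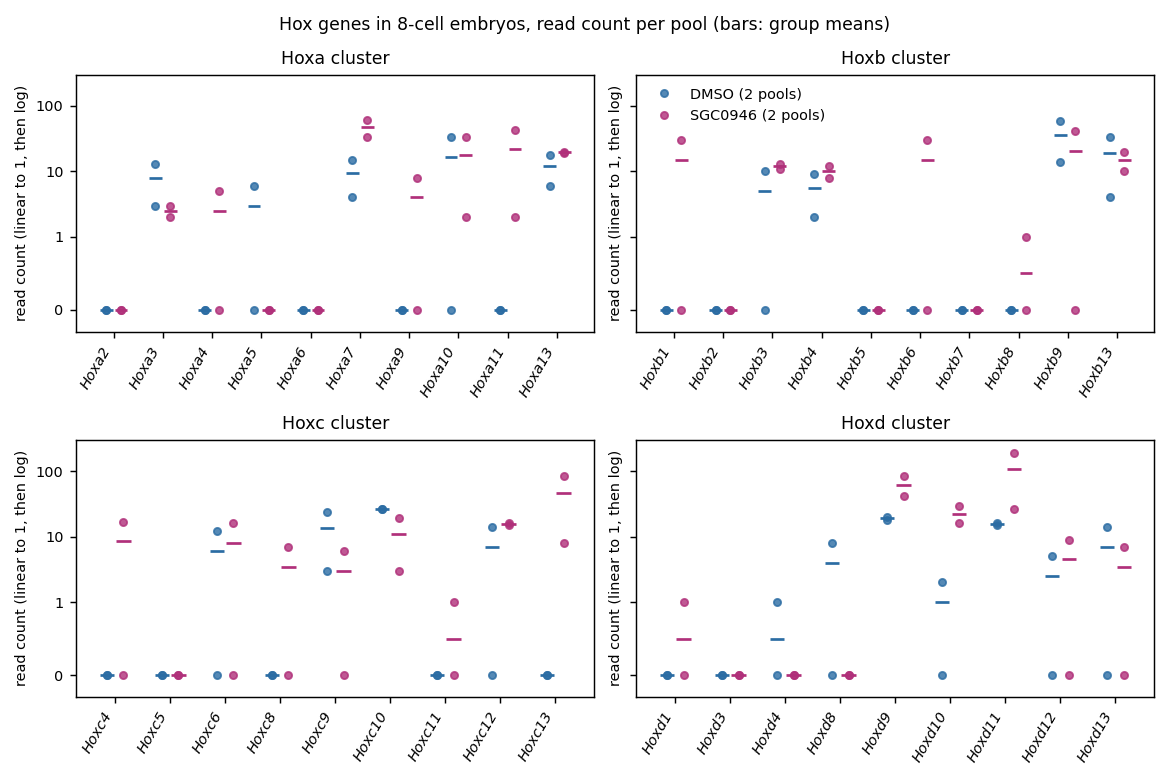
Read counts of the Hox genes described (y axis, linear to 1, then logarithmic) in each pool of 8-cell embryos, in 1 panel per cluster. Points are pools (2 DMSO, 2 SGC0946) and bars are group means; the highest value is Hoxd11 in SGC0946 replicate 1, at 186 counts against 26 in replicate 2.

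No Hox gene was called after SGC0946. Of 13 tested genes, 0 passed an adjusted p under 0.05 (edgeR; 0% of 14351 tested genes did), and 1, Hoxd11, had an unadjusted p under 0.05, against 8.15% of all tested genes. Limma-voom called 0 Hox genes as well, and 55 of all tested genes. DESeq2 called 126 of all tested genes but gave no adjusted p for any of the 13 Hox genes. Among the 13, the groups did not overlap in 5 that were higher and 2 that were lower with SGC0946, against 20.1% and 19.2% of all tested genes. Without SGC0946 replicate 2, 2 genes were called higher, Hoxd11 (adjusted p = 0.0289) and Hoxc13 (adjusted p = 0.0452), a fit in which the lone inhibitor pool is assumed to vary like the DMSO pools. That fit called 365 of 15285 tested genes, 148 of them higher.

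The 3 genes with the highest mean were Hoxd11, Hoxd9 and Hoxb9. Hoxd11, a forearm gene, had 16 and 15 counts with DMSO and 186 and 26 with SGC0946, a log2 fold change of 2.76 ± 1.08 (SE; adjusted p = 0.504). The value rests on replicate 1, without which it was 0.46. Hoxd9 had 18 and 20 counts with DMSO and 83 and 41 with SGC0946 (log2 fold change 1.63 ± 1.16, SE; adjusted p = 0.793). Hoxb9 had 58 and 14 counts against 0 and 41 (log2 fold change -1.08 ± 1.72, SE; adjusted p = 0.948), and the sign turned to 0.25 without DMSO replicate 1.

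Some genes had reads in 1 group of pools. Hoxc13 had 0 and 0 counts with DMSO and 84 and 8 with SGC0946, and Hoxa11 had 0 and 0 against 42 and 2. Reads with SGC0946 alone were also found, in 1 pool each, for Hoxa4, Hoxa9, Hoxb1, Hoxb6, Hoxb8, Hoxc4, Hoxc8, Hoxc11 and Hoxd1. Fewer genes had reads with DMSO alone. They were Hoxa5 (0 and 6 counts against 0 and 0), Hoxd8 (0 and 8 against 0 and 0) and Hoxd4 (0 and 1 against 0 and 0). The share of all genes with reads in 1 group alone was not computed. Replicates of a group differed as well: Hoxb1 had 30 counts in SGC0946 replicate 1 and Hoxb6 had 30 in replicate 2, with 0 in the other 3 pools. In 9 of the 32 Hox genes with a count (28.1%) 1 replicate of a group was at 0 and the other at 10 counts or more, against 27.9% of the 7286 genes with the same range of total counts (1 to 243). Posterior genes carried most of the counts, with 187 and 163 counts in the DMSO pools and 505 and 241 in the SGC0946 pools. Of the 13 tested genes, 9 were posterior, 2 anterior and 2 central.

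Hoxd1, called in every setting in mESCs, had 0 counts in both DMSO pools and in 1 SGC0946 pool, and a single count in the other. The genotype contrast and the inhibitor contrast differ in cell type and agent, and a difference between them was not tested.

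The same fit gave values for genes that act upstream of or beside Hox genes, and their counts are read against the 22.3% of all tested genes that rose and the 21.6% that fell. The caudal gene Cdx1, a known activator of Hox genes in the early embryo, had 24, 30 and 34 counts in WT against 163 and 186 in KO, a log2 fold change of 2.57 ± 0.17 (SE; adjusted p = 1.19e-07). Cdx2 had 12, 8 and 15 against 19 and 33 (log2 fold change 1.14, adjusted p = 0.0282), and with it 2 of 4 tested caudal and ParaHox genes rose and none fell. Of the 2 even-skipped neighbours, Evx1 beside Hoxa13 did not pass the test (12, 11 and 12 counts against 9 and 19), and Evx2 beside Hoxd13 had 6, 8 and 11 counts in WT against 0 and 0 in KO and was not tested.

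Of 16 genes of retinoic acid signalling and metabolism, 9 rose and 1 fell, with a median log2 fold change of 0.55. The 2 largest rises were those of Crabp1, which binds retinoic acid in the cytoplasm (1.51 on the log2 scale), and Stra8, a retinoic acid target (1.45), and the receptor gene Rxra fell by 0.74. Among the 9 TALE homeodomain genes, whose proteins bind DNA together with HOX proteins, 3 rose and 4 fell, with the largest change in Pknox2 (-0.88) and Pbx4 (0.45). These values are log2 fold changes in the same fit as the Hox genes.

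Of 12 genes of Polycomb complex PRC2, 4 rose and 3 fell, with the largest changes in Epop (-0.77) and Rbbp7 (-0.71). The catalytic subunits Ezh2 and Ezh1 both rose, by 0.21 and 0.37 on the log2 scale. Of 19 genes of PRC1, 5 rose and 5 fell, led by Bmi1 (-1.01) and Pcgf5 (0.68). Of 8 genes of the MLL complexes, which maintain active Hox genes, none rose and 3 fell, Wdr5 by 0.31, Kmt2b by 0.20 and Ash2l by 0.13 on the log2 scale. Of 22 tested genes beside the clusters, 5 rose and 7 fell, led by Calcoco2 beside Hoxb13 (-1.90) and Skap1 beside Hoxb1 (0.82). In embryos 0 genes of these lists were called by edgeR.

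Markers of other cell types were read in the same libraries, beside the 22.3% of all tested genes that rose and the 21.6% that fell. Of 11 markers of embryonic fibroblasts, which express Hox genes and are widely used as feeder cells, 10 were tested, 6 rose and none fell. Their summed level was 212 to 263 CPM in WT and 274 to 330 CPM in KO, and Col1a1 had 1635, 1823 and 1184 counts in WT against 2539 and 2191 in KO. Col3a1, another fibroblast collagen, had 899, 896 and 692 counts in WT against 825 and 681 in KO (log2 fold change -0.14) and was not called, nor were Dcn (-0.12) and Twist2 (-0.06). Lum, Dcn and Twist2 were below 2 CPM on average in both groups. Of 6 primitive endoderm markers 4 of the 5 tested rose, with summed levels of 15.8 to 17.2 CPM in WT and 31.0 to 33.3 CPM in KO. Of 6 mesoderm markers, T and Eomes rose, with summed levels of 16.1 to 17.5 against 26.2 to 27.1 CPM, and of 5 neural markers, Nes and Pax6 fell. Their part in the Hox result was not tested, and in these bulk samples a change in the number of cells of a type and a change of RNA per cell cannot be told apart.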

How the data were processed

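RNA and ChIP values are those the authors deposited, and tools are named per the submitters' processing notes, without versions. The mESC table holds estimated counts (expected counts) per gene from the authors, whose notes list kallisto (and for 4 of the 5 libraries also STAR and HTSeq), and they were rounded here. The embryo table holds read counts per gene from the authors, whose notes list STAR and HTSeq. The authors deposited 1 peak list per ChIP library, and the notes list Bowtie2, MACS2 and mm10. The deposited lists give a score, a fold enrichment (ratio) and a −log10 p and −log10 q per peak. Input libraries were not used here.

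Each RNA table was fitted whole with edgeR 4.0.16 in R 4.3.3 (filterByExpr, TMM, quasi-likelihood F test, Benjamini-Hochberg adjustment over all tested genes, threshold 0.05), after a test on simulated data. CPM is given as mean ± SD of libraries and fold changes with the SE of the fit. A peak met a gene when it overlapped its RefSeq body by at least 1 bp. Named in full were the called Hox genes and the 3 of highest mean CPM, and of peaks the highest-scoring per cluster and list and those of genes met in both WT lists; for the other genes ranges or selected values are given, chosen after they were seen. Of the genes this rule chose, 1 is not reported here, and counts and sums over the genes include it. The members and gene lists were chosen with earlier results of these data known. The lists were TALE, caudal and ParaHox, Evx, cluster neighbours, noncoding RNAs, PRC2, PRC1, MLL, retinoic acid, and markers of pluripotent, fibroblast, primitive endoderm, mesoderm, neural, trophectoderm, 8-cell and cumulus cells. Alternatives were other scalings, DESeq2 1.42.0, limma-voom (limma 3.58.1), other filters, a replicate block, leaving out libraries, single peak lists and stricter peaks. Peaks and figures used Python 3.11.15, pandas 2.3.3 and matplotlib 3.10.9. Depth of the ChIP libraries is unknown, as peak lists give no counts. Floors cover counting error only.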

Additional observations from a re-analysis of the deposited data

How the results depend on the processing

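The count of Hox genes called in mESCs was 10 and lay between 7 and 14 with size factors of DESeq2 in edgeR, with upper-quartile scaling, with limma-voom, without a filter, with 10 counts required in each library and with autosomal genes alone. It was 2 with DESeq2 and 3 to 6 when a library was left out. With the replicate number as a block it was 6 (5 higher, 1 lower). Over all genes in embryos, edgeR with this block called 171 of 14351, against 0 without it. Deviations of same-numbered libraries had correlations of 0.0068 and -0.026 in mESCs and 0.052 in embryos. In a group of 2 libraries the deviations mirror each other, so these values cannot show whether the numbers mark a batch. In embryos the count stayed at 0 in the other settings that gave an adjusted p, the replicate block included (DESeq2 gave none for the Hox genes), and was 0 to 2 when a pool was left out. Signs turned when a library was left out in Hoxb9 of mESCs (log2 fold change -0.56 to 0.029), in Hoxc4 of mESCs (-0.32 to 0.018) and in Hoxb9 of embryos (-8.15 to 0.25, the former with 0 counts in the lone SGC0946 pool and so no bound). Genes with an H3K79me3 peak in both WT lists were 3, against 3 to 17 with 1 list left out, and 0 with a −log10 q of at least 5 or with at least 50% of the body covered. The mean share of Hoxb covered by H3K79me2 was 2.81%, 1.24% with a −log10 q of at least 5 and 2.52% with 10 kb added on each side. The H3K79me2 shares of Hoxa, Hoxc and Hoxd were 0% in each of these settings. The H3K79me3 shares differed widely between the lists. That of Hoxa was 1.54% on average, from 2.87 and 0.209%, and 0.426% with a −log10 q of at least 5. That of Hoxd was 1.04% on average, from 1.87 and 0.215%. With 2 lists, a move of the mean within their spread cannot show that a share is stable. Depth limits the RNA results: 25 of the 39 genes had under 1 CPM in WT mESCs on average.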

Other observations

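The 5 trophectoderm markers gave 3 that rose (Cdx2, Krt18 and Krt8) and 1 that fell (Tfap2c) in KO mESCs, and Krt18 had 243, 331 and 241 counts in WT against 382 and 453 in KO. Of 6 genes listed for 8-cell embryos, of which Pou5f1, Nanog and Tfap2c are also in other lists, 1 rose and 5 fell in KO mESCs, and 0 were called in embryos. Beside these lists, 22.3% of all tested genes rose and 21.6% fell in KO mESCs. Of 8 markers of cumulus and granulosa cells 1 rose in mESCs, and 0 of the 2 tested were called in embryos, where their summed level was 41.3 to 49.2 CPM in all 4 pools. Of the noncoding RNAs of the clusters, the embryo table had rows for 10. Hoxa11os, the antisense RNA of Hoxa11, had 0 and 1 counts with DMSO and 25 and 18 with SGC0946 (adjusted p = 0.646, edgeR), beside the 0 and 0 against 42 and 2 counts of Hoxa11 itself. The Mir196a-1 row had 5 and 32 counts with DMSO and 27 and 23 with SGC0946.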
